A study of Mus musculus with 6 samples.

Results

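The transcripts of 10 members of the BCL2 family, the regulators of mitochondrial apoptosis, were followed in mouse hepatocytes: 3 survival members (Bcl2, Bcl2l1 and Mcl1), 2 effectors (Bax and Bak1) and 5 BH3-only members (Bid, Bcl2l11, Bbc3, Pmaip1 and Bmf). They were chosen by symbol, and all 10 were found among the 25330 genes of the tables. The BCL2 family controls whether the outer membrane of the mitochondrion stays intact under stress. Survival members bind and restrain the effectors, which otherwise form pores through which cytochrome c escapes and caspases become active. BH3-only members carry a short segment, the BH3 domain, that occupies the groove of the survival members or acts on the effectors directly. In the liver, where hepatocytes depend on this route also for death receptor signals, the balance of these proteins is a known determinant of injury.

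The libraries were made from AML12 cells, a mouse hepatocyte line derived from a TGF-alpha transgenic mouse and labelled WT for these libraries, routinely grown in DMEM/F12 with serum, an ITS supplement and dexamethasone. Of the 6 libraries, 3 came from cells kept at 21% oxygen (control) and 3 from cells held at 1% oxygen for 6 h in medium without serum and glucose and then reoxygenated for 2 h (labelled H6R2, H/R below). Oxygen and medium changed together and cannot be told apart. The labels do not say whether the libraries came from separate cultures, so p-values measure the spread between these libraries only.

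Total counts lay between 21026650 and 21854790 in control and between 20438746 and 21742441 in H/R libraries. Of 11 listed hepatocyte markers, 9 could be tested, of which 3 were higher and 6 lower after H/R, and Alb, Ttr and Apob were lower by at least 2-fold. Among all tested genes 31.0% were higher and 31.8% lower at an adjusted p under 0.05, and 4.27% were lower by at least 2-fold. Krt8 had a mean RPKM (counts divided by gene length and library total) of 1394 in control, and the hepatocyte regulator Hnf4a had 29.5. Alb, the defining plasma protein, was low, with counts of 542 in control replicate 1, 132 in control replicate 2, 209 in control replicate 3 and 31 to 43 after H/R. Of 14 markers of other liver cells, 7 had at most 3 counts in every library, among them Ptprc, Pecam1 and the macrophage markers Adgre1 and Clec4f. Only 4 could be tested. These 4 were all higher after H/R, by 6.80 times for the macrophage marker Cd68 (19.1 and 130 mean normalized counts), 5.67 times for Sox9, and 2.00 and 1.73 times for the biliary keratins Krt19 and Krt7. The keratins held most of the list's summed RPKM, which was 535 to 610 in control and 1014 to 1066 after H/R. Their part in the results below was not tested. In bulk RNA, fewer cells of a type and less RNA per cell cannot be told apart. Control replicate 1 stands apart by Alb and by Serpina1a, another plasma protein gene, which had 61 counts there and at most 1 in the other libraries. Over all genes, a chi-square per degree of freedom was taken between the counts of 2 libraries, larger where they differ more. It was 10.4 and 10.8 between control replicate 1 and the other controls, and 4.04 between control replicates 2 and 3. Among the H/R libraries it was 1.83 to 2.58, so the controls differed more among themselves. Without control replicate 1, the number of members at an adjusted p under 0.05 was 8 in place of 9, as Bcl2l11 was lost.

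The members share the BH3 core, 6 codons long. It was searched for in frame as a leucine codon (CTN, TTA or TTG), 3 codons of any kind, GGN or GCN, and GAT or GAC, in the principal coding transcript of 9 members (GENCODE M21, GRCm38), and each held exactly 1 match. These stretches are shown because the core lies in the BH3 domain, which takes part in binding between members. Pmaip1 was not searched, so its absence here does not mean that it lacks a match. The 18 bases of the core are in capitals, with 12 bases before and 18 after it, read 5′ to 3′ on the coding strand.
Bcl2: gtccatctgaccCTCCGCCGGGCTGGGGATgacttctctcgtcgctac
Bcl2l1: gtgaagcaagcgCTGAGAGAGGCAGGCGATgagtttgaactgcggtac
Mcl1: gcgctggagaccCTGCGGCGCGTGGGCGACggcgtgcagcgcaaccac
Bax: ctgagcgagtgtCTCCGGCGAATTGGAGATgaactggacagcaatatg
Bak1: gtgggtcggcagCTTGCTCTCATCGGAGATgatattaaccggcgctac
Bid: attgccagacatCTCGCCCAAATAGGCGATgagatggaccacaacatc
Bcl2l11: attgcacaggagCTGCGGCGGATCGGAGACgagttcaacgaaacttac
Bbc3: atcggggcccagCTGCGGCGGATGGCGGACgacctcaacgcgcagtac
Bmf: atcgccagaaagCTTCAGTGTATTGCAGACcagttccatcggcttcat

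The survival members carry the core in an early coding exon. It lies at chr1:106712566-106712613 (minus strand, exon 1 of 2) for Bcl2, chr2:152829688-152829735 (minus strand, exon 2 of 3) for Bcl2l1 and chr3:95659424-95659471 (plus strand, exon 1 of 3) for Mcl1. For the effectors it lies at chr7:45465988-45466035 (minus strand, exon 3 of 6) in Bax and chr17:27022522-27022569 (minus strand, exon 4 of 6) in Bak1. For the BH3-only members it lies at chr6:120897280-120897327 (minus strand, exon 4 of 6) in Bid, chr2:128147138-128147185 (plus strand, exon 3 of 4) in Bcl2l11, chr7:16313761-16313808 (plus strand, exon 3 of 4) in Bbc3 and chr2:118545091-118545138 (minus strand, exon 4 of 5) in Bmf. Of the 18 core positions, 5 were identical in all 9 genes, and 4 of these were set by the search itself. The fifth codon, for which the search allowed either, began with GG in 7 genes and with GC in 2, Bbc3 and Bmf.

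The question asked of the counts was how the transcripts of each role differed between H/R and control cells. Counts were scaled by edgeR's TMM factors (normalized counts) and tested with edgeR's quasi-likelihood test over the 14020 genes that passed the filter on low counts, with Benjamini-Hochberg adjustment, which is the source of every adjusted p below. All 10 members passed the filter. At an adjusted p under 0.05, 4 members rose (Bcl2l1, Mcl1, Bbc3 and Pmaip1), 5 fell (Bcl2, Bak1, Bid, Bcl2l11 and Bmf) and Bax did not pass. The same threshold was passed by 62.8% of all tested genes, 31.0% higher and 31.8% lower, so 9 of 10 members is read against a background in which most genes moved. In all 9 the normalized counts of the H/R libraries did not overlap those of the control libraries, which held for 65.9% of all tested genes. With a change of at least 2-fold in addition, 1 member was higher (Pmaip1) and 1 was lower (Bmf), against 8.52% of all tested genes, 4.25% higher and 4.27% lower. By role, 2 of 3 survival members rose and 1 fell, neither effector rose and 1 fell, and 2 of 5 BH3-only members rose and 3 fell. The median log2 fold change was 0.62 for the survival members, -0.17 for the effectors and -0.25 for the BH3-only members, beside -0.01 over all tested genes. The roles were not tested against each other.

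**Figure D1:**
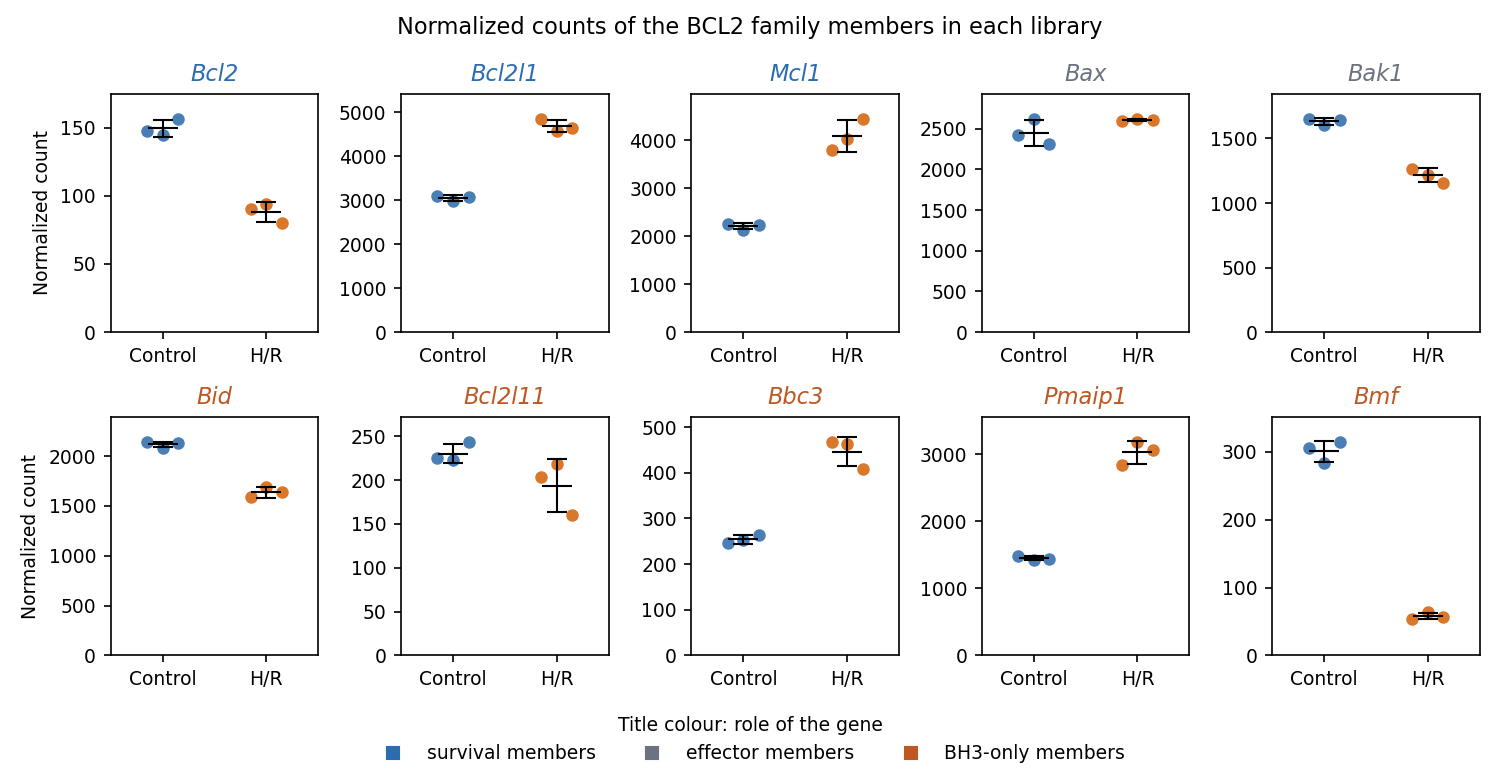
Normalized counts (vertical axes, from 0) of the 10 members in the 3 control and 3 H/R libraries, with the mean and SD of each group as bars and the role of the gene given by the colour of its name. Each gene has its own axis, and Bax is the gene whose groups overlap.

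Of the survival members, Mcl1 and Bcl2l1 rose and Bcl2 fell. Mcl1 (chromosome 3, 95658788 to 95663176, plus strand) encodes a short-lived protein that restrains Bak1 and binds Noxa with preference. Its normalized counts were 2257, 2140 and 2225 in the 3 controls (replicates 1, 2 and 3, in this order throughout) and 3804, 4028 and 4445 after H/R. All H/R libraries lay above all control libraries, with a spread among themselves wider than that of the controls. The means were 2207 ± 60.6 and 4092 ± 325 (SD, n = 3 each), and edgeR put the log2 change at 0.89 with a standard error of 0.0489 (adjusted p = 2.13e-16).

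Bcl2l1 (chromosome 2, 152780668 to 152831728, minus strand) encodes BCL-XL, the survival protein on which adult hepatocytes depend together with MCL1. Normalized, it had counts of 3095, 2970 and 3069 in control and 4843, 4570 and 4647 after H/R. The groups were far apart compared with their spread. The means were 3045 ± 66.2 and 4687 ± 141 (SD, n = 3 each), and edgeR put the log2 change at 0.62 with a standard error of 0.0422 (adjusted p = 6.21e-15). The counts are per gene, so the long survival form and the short death-promoting splice form of Bcl2l1 cannot be told apart.

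Bcl2 (chromosome 1, 106538178 to 106714274, minus strand), the founding survival member, went the other way from a low level. Its raw counts were 156, 148 and 166 in control and 84, 87 and 80 after H/R. Scaled, these were 148, 144 and 156 against 90.5, 93.8 and 79.9, with no overlap. By edgeR this was a log2 change of -0.76 with a standard error of 0.129 (adjusted p = 4.10e-06), a level 1.70 times lower after H/R. Of the exon length of Bcl2, 6.09% is shared with D630008O14Rik on the opposite strand, which itself had a mean RPKM of 0.575 in control and 0.301 after H/R, so reads of the shared 558 bases are uncertain, since counting by strand is not stated.

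Of the effectors, Bak1 fell and Bax did not pass the test. Bax (chromosome 7, 45461697 to 45466898, minus strand) encodes the effector that moves from cytosol to mitochondria on activation. Its normalized counts were 2417, 2615 and 2308 in control and 2590, 2619 and 2605 after H/R. The groups overlapped, with control replicate 2 as high as the H/R libraries. The log2 fold change was 0.09 (95% confidence interval -0.00 to 0.18, adjusted p = 0.0879 from edgeR). Without control replicate 2 it was 0.14 (adjusted p = 0.00883 from edgeR), and scaled by library totals alone it was -0.01. A stretch of 192 bases, 12.2% of its exon length, is shared with RP23-218K15.5 on the same strand, whose mean RPKM was 117 in control and 118 after H/R.

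Bak1 (chromosome 17, 27019810 to 27029009, minus strand) encodes the effector that resides in the mitochondrial membrane, held by MCL1 and BCL-XL. The control libraries had normalized counts of 1650, 1603 and 1644, and the H/R libraries 1266, 1218 and 1158. Every H/R library was below every control library. The means were 1633 ± 25.4 and 1214 ± 53.8 (SD, n = 3 each), and edgeR put the log2 change at -0.43 with a standard error of 0.0492 (adjusted p = 2.55e-09). Ggnbp1 on the opposite strand shares 14.8% of the exon length of Bak1 and had mean RPKM values of 5.90 in control and 4.87 after H/R.

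The 5 BH3-only members moved in opposite directions. Pmaip1 (chromosome 18, 66458604 to 66465550, plus strand) encodes Noxa, which neutralizes MCL1. Its normalized counts were 1485, 1431 and 1447 in control and 2843, 3179 and 3073 after H/R, so that each H/R library held close to 2 times the control value. The means were 1454 ± 27.7 and 3032 ± 172 (SD, n = 3 each), and edgeR put the log2 change at 1.06 (95% confidence interval 0.96 to 1.16, adjusted p = 6.60e-20). The rise was past 2-fold only narrowly. Scaled by library totals alone, the log2 change was 0.96, and by upper quartiles 0.99, settings under which no member rose by at least 2-fold and Bmf alone remained past both thresholds. Those scalings moved the median of all tested genes to -0.12 and -0.08, and the share of higher genes among all genes past both thresholds from 49.9% to 37.0% and 41.3%.

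Bbc3 (chromosome 7, 16308393 to 16318205, plus strand) encodes PUMA, which binds all survival members. Normalized counts of Bbc3 were 245, 253 and 265 in control and 466, 464 and 409 after H/R. All H/R libraries were higher than all control libraries. The means were 254 ± 9.74 and 446 ± 32.5 (SD, n = 3 each), and edgeR put the log2 change at 0.81 with a standard error of 0.0830 (adjusted p = 1.92e-10).

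Bmf (chromosome 2, 118528757 to 118549687, minus strand) encodes a BH3-only protein tied to the actin cytoskeleton through a dynein light chain. Its raw counts were 322, 291 and 333 in control and 50, 59 and 57 after H/R. The scaled values were 305, 284 and 313 against 53.9, 63.6 and 57.0, a wider separation on the log2 scale than for any other member. The log2 fold change was -2.37 (95% confidence interval -2.61 to -2.13, adjusted p = 2.00e-18 from edgeR), a level 5.17 times lower after H/R. Counting Bmf, 27 of the 14020 tested genes had a log2 fold change as low or lower.

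Bid (chromosome 6, 120891930 to 120916853, minus strand), which caspase-8 cleaves to link death receptors to mitochondria, fell. Bid had normalized counts of 2136, 2085 and 2128 in control and 1584, 1692 and 1636 after H/R. The control libraries were close together and all above the H/R libraries. By edgeR this was a log2 change of -0.37 with a standard error of 0.0457 (adjusted p = 1.15e-08). Bcl2l13, another family gene on the opposite strand, shares 628 bases, 17.7% of the exon length of Bid, and was itself higher after H/R by 0.47 on the log2 scale (edgeR, adjusted p = 8.54e-11).

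Bcl2l11 (chromosome 2, 128126038 to 128162547, plus strand) encodes BIM, which can activate the effectors directly. Its normalized counts were 225, 222 and 243 in control and 204, 218 and 160 after H/R. H/R replicate 3 was the lowest, and the highest H/R library came within a few counts of the lowest control library. By edgeR this was a log2 change of -0.25 with a standard error of 0.107 (adjusted p = 0.0398). The call was lost without H/R replicate 3 (log2 fold change -0.13, adjusted p = 0.339 from edgeR), without control replicate 1 (-0.27, 0.0567) or control replicate 3 (-0.21, 0.123), and with DESeq2 (-0.24, adjusted p = 0.193).

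**Figure D2:**
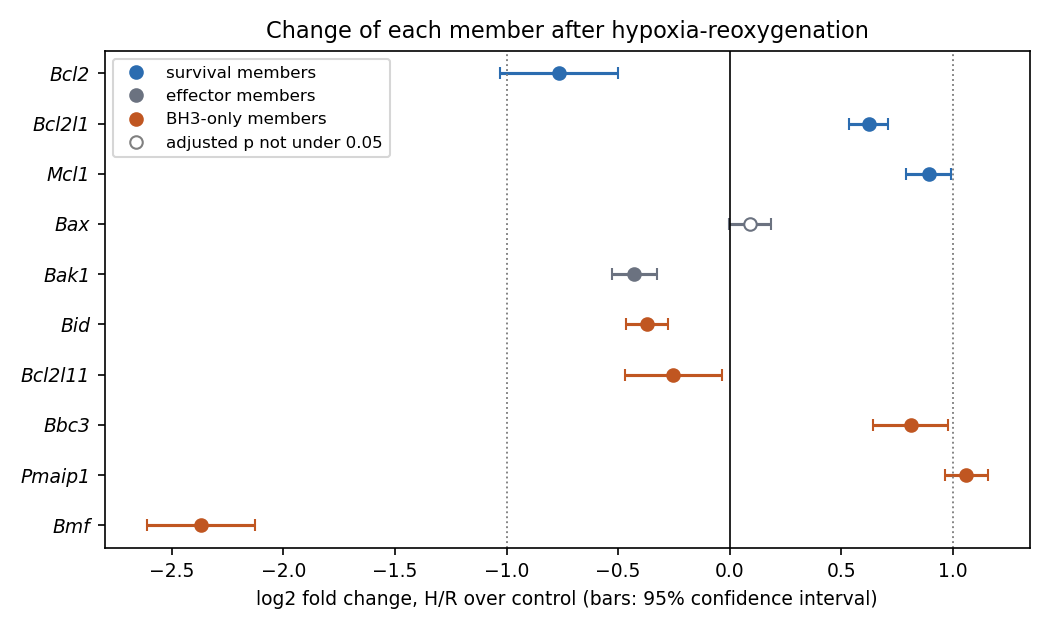
Log2 fold change of H/R over control for each member (horizontal axis), with 95% confidence intervals as bars, colours for the roles and dotted lines at 2-fold. Bmf at -2.37 and Pmaip1 at 1.06 are the members past the dotted lines, and the open symbol is Bax.

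Levels were compared between genes per gene length, as RPKM. In control cells Bax was highest with a mean of 76.0 ± 4.28 (SD, n = 3). Bak1 (33.2), Bcl2l1 (32.5) and Mcl1 (31.6) followed, and neighbours in this order had overlapping ranges over the 3 libraries. Bid (29.2) and Pmaip1 (26.9) lay just under them, each separate from the next higher gene. Bbc3 (5.86), Bmf (2.80), Bcl2l11 (1.40) and Bcl2 (0.800) formed the low end, with no overlap between neighbours.

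After H/R the order in the middle had changed. Bax was again highest with a mean RPKM of 75.3 ± 0.873 (SD, n = 3). Mcl1 (54.6 ± 4.85) and Pmaip1 (52.2 ± 3.15) came next and their ranges overlapped, followed by Bcl2l1 (46.5 ± 1.29). Bak1 (23.0) and Bid (21.0) now stood apart below them. At the low end Bbc3 had 9.56, Bcl2l11 had 1.10, and Bmf (0.504) and Bcl2 (0.438) overlapped. Bcl2 had the lowest mean of the 10 members in either condition.

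**Figure D3:**
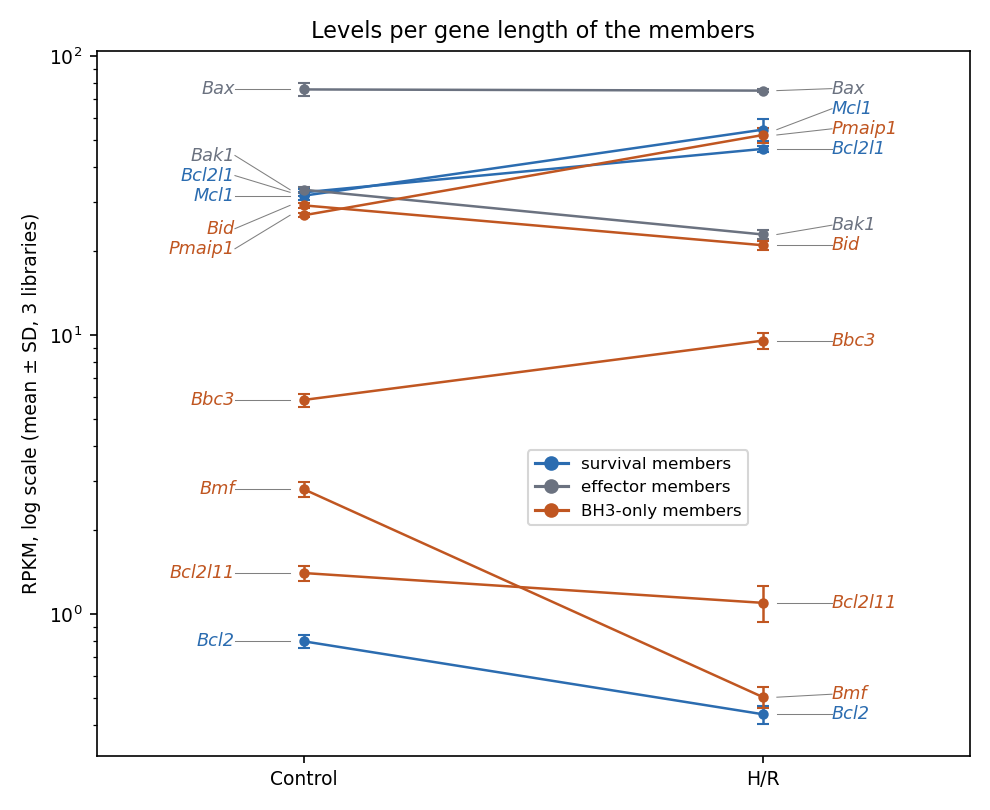
Mean RPKM (log scale, bars are SD of 3 libraries) of each member in control and H/R cells, joined by a line per gene. Mcl1, Bcl2l1 and Pmaip1 move upwards from the group of genes below Bax, Bak1 and Bid move downwards from it, and Bmf drops to the level of Bcl2.

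The sum of RPKM over the 10 members was 240.3 ± 1.59 in control and 284 ± 6.59 after H/R (SD, n = 3 each). By role, the summed RPKM was 64.9 ± 1.90 in control and 102 ± 4.65 after H/R for the survival members, 109 ± 3.61 and 98.2 ± 0.0988 for the effectors, and 66.2 ± 1.52 and 84.4 ± 3.77 for the BH3-only members. A share of the sum therefore also moves with the sums of the other roles. RPKM is scaled by library totals alone, without the TMM factors. Those factors were higher in every control library than in any H/R library. With them, the H/R sums would be higher relative to control, and the fall of the effector sum smaller. Whether the effector sums of the groups would then still separate was not tested. Shares within a library do not depend on this scaling. The survival members held 27.4%, 26.1% and 27.6% of the sum over the 10 members in the control libraries and 35.6%, 34.7% and 36.9% in the H/R libraries, with no overlap. The share of the effectors was 45.4% ± 1.42 in control and 34.6% ± 0.784 after H/R, lower in every H/R library than in any control library. The share of the BH3-only members was 27.5% ± 0.609 and 29.7% ± 0.959 (SD, n = 3 each), and this difference of 2.15 percentage points became -1.75 when counts were not divided by gene length. These shares rest on the most abundant genes: without Mcl1 the difference of the survival members was 4.50 percentage points in place of 8.71, and without Bax that of the BH3-only members was 0.117. The sums hold the 10 listed members only and leave out other family genes. Among those left out are Bcl2l2, with a mean RPKM of 2.93 in control and 3.19 after H/R, and Bok, with 1.14 and 0.821. Bad, another BH3-only gene, is left out too. Bad had a mean RPKM of 36.3 in control and 21.8 after H/R, where Bid had 29.2 and 21.0. The BH3-only share therefore does not describe all BH3-only transcripts. With the mean RPKM of Bad added to both sums, the share is lower after H/R than in control, not higher.

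Ratios within a library do not depend on how libraries are scaled, and 5 pairs were examined. The study blotted Bax and Bcl2 as proteins. It describes them for KLF6 knockout or overexpression against the matching cells, a contrast other than H/R against control. The RPKM ratio of Bax to Bcl2 was 95.1, 105 and 85.8 in control and 166, 162 and 189 after H/R. The mean log2 ratio was higher by 0.86 after H/R (1.81 times), and of the pair only Bcl2 had passed the test by gene. The ratio of Bak1 to Mcl1 was 1.04, 1.06 and 1.05 in control and 0.472, 0.429 and 0.370 after H/R, a difference of -1.32 on the log2 scale. The ratio of Bcl2l11 to Bcl2l1 was 0.0416, 0.0428 and 0.0452 in control, above the 0.0240, 0.0272 and 0.0197 after H/R.

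For the pairs in which both genes rose, the ratios differed little. The ratio of Pmaip1 to Mcl1 was 0.850, 0.864 and 0.840 in control and 0.966, 1.02 and 0.893 after H/R, 1.13 times higher. The ratio of Bbc3 to Bcl2l1 was 0.171, 0.184 and 0.186 against 0.208, 0.219 and 0.190, 1.14 times higher, with the lowest H/R library only just above the highest control library. None of the 5 ratios overlapped between groups. The share over other gene pairs was not computed, but 65.9% of all tested genes did not overlap when taken singly. For Bak1 to Mcl1 and Bcl2l11 to Bcl2l1, the genes had already separated in opposite directions, so their ratios had to separate. For each of the 5 ratios the exact two-sided permutation test gave p = 0.1 (0.1 after adjustment over the 5), the smallest that 3 against 3 libraries allow.

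**Figure D4:**
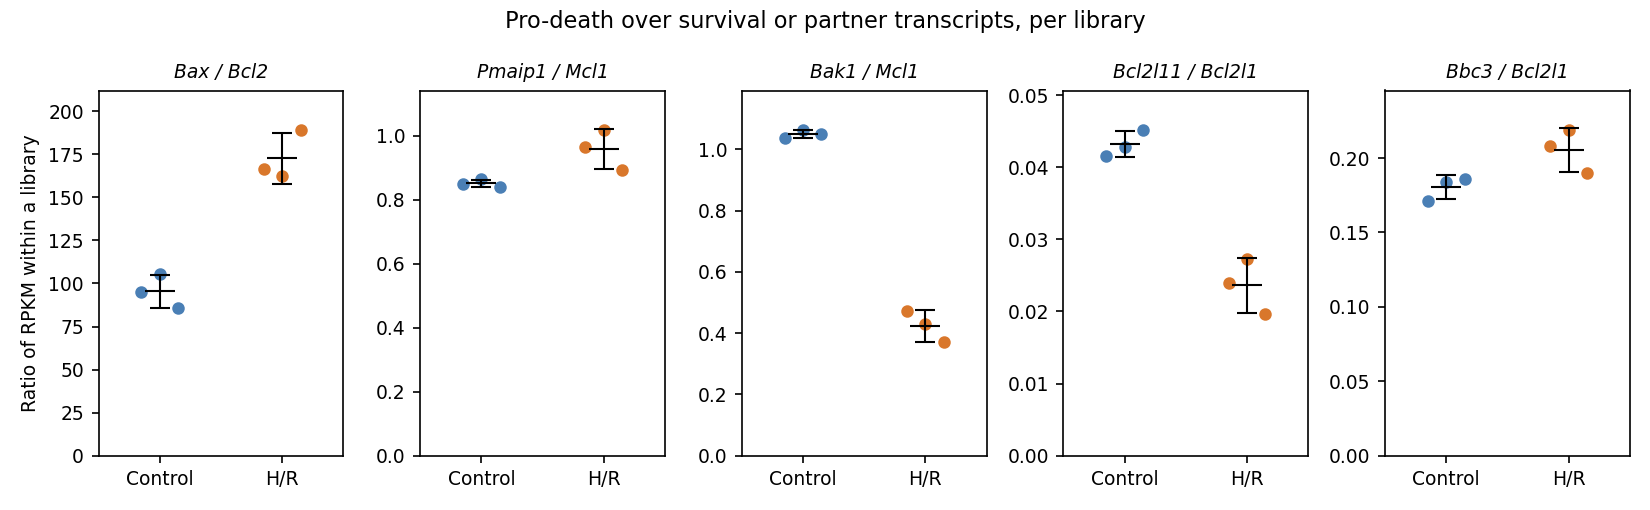
Ratio of the RPKM of a pro-death gene to that of a survival gene (vertical axes, from 0) in each of the 3 control and 3 H/R libraries, with mean and SD as bars. Bax to Bcl2 lies higher after H/R, Bak1 to Mcl1 and Bcl2l11 to Bcl2l1 lie lower, and the other ratios are close to their control values.

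Among the other BCL2 family genes, 7 of 13 listed were analysed and 5 could be tested, of which 2 were higher, 2 were lower and none reached 2-fold, where 62.8% of all tested genes were called. The genes of this and the next 2 lists that are named were picked after their values were seen. Bad, a BH3-only gene whose protein is controlled by survival kinases, fell by 0.63 on the log2 scale (edgeR, adjusted p = 1.59e-12). It shares 517 bases of exon with Gpr137 on the opposite strand. Bok, an effector-like member, had 42.6 ± 6.98 and 33.2 ± 12.6 normalized counts (SD, n = 3 each) and did not pass the test.

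Of 15 genes of the apoptosome, caspases and their inhibitors, 14 were tested, 3 were higher, 8 were lower and none reached 2-fold. Among all tested genes 31.0% were higher, 31.8% lower and 8.52% past both thresholds. The median log2 fold change was -0.28 for this list and -0.01 over all tested genes. Cycs, encoding cytochrome c, fell by 0.35 on the log2 scale, from 3999.7 ± 113 to 3139.8 ± 62.1 normalized counts (SD, n = 3 each). Casp9, the initiator caspase of the apoptosome, which shares 94 bases of exon with Cela2a and Ctrc on the opposite strand, fell by 0.52, while Apaf1, its scaffold, had 0.16 and did not pass (adjusted p = 0.110 from edgeR). The inhibitor genes Birc3 and Birc2 rose with log2 fold changes of 0.80 and 0.47, whereas Xiap, the direct caspase inhibitor, fell by 0.26.

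Of 13 genes whose products handle BCL2 family proteins, 4 were higher, 5 were lower and none reached 2-fold, so 9 of 13 were called beside 62.8% of all tested genes. Dynll1 and Dynll2, the dynein light chains that hold BIM and BMF, fell by 0.88 and 0.63 on the log2 scale. Huwe1, a ubiquitin ligase for MCL1, fell by 0.26, and Usp9x, which removes ubiquitin from it, had a log2 fold change of 0.08 and did not pass (adjusted p = 0.115 from edgeR). Bag3, a cochaperone, rose by 0.65.

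Of 16 transcription factors with known action on BCL2 family genes, 15 were tested, 13 rose and 2 fell, with a median log2 fold change of 0.73, where 31.0% of all tested genes were higher and 31.8% lower. Past both thresholds were 5, all higher, beside 4.25% of all tested genes, with log2 fold changes of 6.56 for Egr1, 3.56 for Atf3, 2.57 for Jun, 1.86 for Myc and 1.61 for Ddit3. Ddit3, known to act on Bcl2 and BH3-only genes under ER stress, had 663 ± 54.7 and 2025 ± 142 normalized counts (SD, n = 3 each). Foxo3 and Trp53 were picked after their values were seen. Foxo3, an activator of Bcl2l11 and Bbc3, rose by 0.90, and Trp53, whose protein activates Bbc3 and Pmaip1, fell by 0.28 at the RNA level. Protein levels and activity were not measured in these files.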

How the data were processed

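RNA of 6 AML12 libraries (3 control, 3 H/R) was extracted with TRIzol and made into stranded mRNA libraries. The submitters' processing notes name Trimmomatic 0.36, GRCm38 and featureCounts of Subread 1.5.1, and the study names a mapper printed as STRA. The annotation and the strand setting of the counting are not given in the sources used here. The deposited counts are whole reads per gene, not normalized. The authors' RPKM values can be recomputed from the count, exon length and library total, with a largest relative error of 1.128e-06. Every gene in the tables had a count in at least 1 library, and 24 gene symbols had been turned into dates, none of them a member. Reads of exons shared by overlapping genes may have been left out, or counted for either gene or for both.

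Counts were analysed with R 4.3.3 and edgeR 4.0.16 (filterByExpr, TMM, robust glmQLFit, glmQLFTest, Benjamini-Hochberg over 14020 genes). Standard errors were derived from the F statistic. Thresholds were an adjusted p of 0.05 and a fold of 2. The pipeline was tested on simulated data. Library totals of 20438746 to 21854790 counts put every member above the floor of 3 counts in every library. Levels between genes used RPKM. Alternatives were DESeq2 1.42.0, other scalings and filters, a replicate block, limma 3.58.1 on log2(RPKM + 1) and log2(RPKM + 0.1), and leaving out each library. Named are all members, the genes past both thresholds of the 4 pathway lists, and the marker genes with the highest summed level; other names were picked after their values were seen. The members, lists and pairs were chosen with earlier results of these data known.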

Additional observations from a re-analysis of the deposited data

How the results depend on the processing

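The number of members at an adjusted p under 0.05 (9) was between 8 and 10 in all 15 alternatives run for it, and between 8 and 10 with each library left out. The number past both thresholds (2) was 2 with each library left out. It was 1 (Bmf alone) under scaling by upper quartiles or by totals and under limma on RPKM with either pseudocount, and 6 (4 higher, 2 lower) with a fold-change threshold of 1.5. The log2 fold changes of 8 members kept their direction and their side of the threshold in every alternative. Bax changed sign in 3 alternatives that all scale by library totals: edgeR with totals alone (-0.0140), limma with a pseudocount of 1 (-0.0124) and limma with 0.1 (-0.0126). It passed the test without control replicate 2. Bcl2l11 lost its call in 5 of 15 alternatives, among them the non-robust fit (adjusted p = 0.0503 from edgeR) and DESeq2. Bmf ranged from -2.47 to -1.34 and Bcl2 from -0.87 to -0.32, the smallest change of each being with limma and a pseudocount of 1, which understates changes of low genes. The number of called genes of the 4 other lists stayed within 1.5 times its value in the 10 alternatives run for them.

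With each library left out, the difference in log2 ratio was between 0.784 and 0.931 for Bax to Bcl2, between 0.126 and 0.221 for Pmaip1 to Mcl1, between -1.40 and -1.22 for Bak1 to Mcl1, between -0.991 and -0.755 for Bcl2l11 to Bcl2l1 and between 0.141 and 0.245 for Bbc3 to Bcl2l1. The shares of summed RPKM moved more. The difference of the survival members (8.71 percentage points) was 10.1 with counts not divided by length and 4.50 without Mcl1. That of the effectors (-10.9) was -8.33 with counts and -9.21 without Bax. That of the BH3-only members (2.15) was -1.75 with counts, 5.03 without Mcl1 and 0.117 without Bax.

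The correlation of deviations between same-numbered control and H/R libraries was -0.0269, 0.00476 and -0.0141, so the numbers did not pair the libraries. With the replicate number as a block, 9 members were at an adjusted p under 0.05 and 2 past both thresholds, as without it. Depth limits Bcl2 and Bmf most, with 80 and 50 counts in their lowest library.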

Other observations

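CACCC is a sequence bound by KLF factors, the family of KLF6 that the study is about. The 250 bases before each RefSeq start site (GRCm38.p6) were searched for it on both strands. The table held 16 start sites of 9 members, some with overlapping windows, and no entry for Pmaip1. CACCC was present before at least 1 start site of 5 members (Bmf, Bcl2l11, Bcl2l1, Bid and Bbc3), in 10 of the 16 windows, beside 52% of all 32851 windows. The 52% is a share of windows, so it is no background for the 5 members. Of these 5 members, 2 rose (Bcl2l1 and Bbc3) and 3 fell in the counts, where 31.0% of all tested genes were higher and 31.8% lower. The call of Bcl2l11, 1 of the 3, did not hold in every setting. Of the members without a match, Mcl1 rose, Bcl2 and Bak1 fell and Bax was not called. The letters ACGTG, found in hypoxia response elements, were present in 2 of the 16 windows (1 of Bax and 1 of Bbc3) beside 16.6% of all windows, and TGATGNAA, found in ATF4 target genes, in 0 of the 16 beside 3.45%. A match is a description of the letters only.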
